A study of Homo sapiens with 4 samples.

Results

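Cytosolic ribosomal protein genes were examined in single cells of H9, a human embryonic stem cell line, with RNA captured in droplets and counted at the 3′ end of the transcript. The 4 libraries were SIRT1 knockout at day 0, wild type at day 0, SIRT1 knockout at day 6 and wild type at day 6 of differentiation towards dopaminergic neurons. The SIRT1 protein removes acetyl groups from other proteins and uses NAD to do so, and the study asked how it bears on metabolism and differentiation. All cells came from the same line, each group was 1 library, and the labels do not say how the deletion was made or whether the knockout was a single clone. Members were chosen by symbol, without use of any measured value. Every feature named RPL or RPS with digits and an optional A or X was taken, with RPLP0, RPLP1, RPLP2 and RPSA. This gave 77 genes of 36601 features, 31 of the small and 46 of the large subunit. Cells were barcodes with at least 4000 unique molecular identifiers (UMIs, each counting 1 captured RNA molecule), at least 1000 genes and at most 20% mitochondrially encoded UMIs. There were 7275 knockout and 5533 wild-type cells at day 0, and 4419 knockout and 5372 wild-type cells at day 6.

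The cytosolic ribosome is built in the nucleolus and cytoplasm from ribosomal RNA and, with few exceptions, a single copy of each of its proteins. The transcripts of these proteins are among the most abundant in dividing cells. Many begin with a cytosine followed by an unbroken run of pyrimidines, the 5′ terminal oligopyrimidine (TOP) start, through which mTORC1 and LARP1 set their translation. Proteins made in excess of the ribosome are normally degraded. Some free members have other partners: RPL5 and RPL11, with 5S ribosomal RNA, bind MDM2 and so bear on p53. Mutations in RPS19, RPS26, RPS10, RPS29, RPL5 and RPL11 cause Diamond-Blackfan anaemia.

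RefSeq transcription starts (GRCh38.p14) were held for 62 of the 77 members. At least 1 start of 46 of these genes (74.2%) had C as the first base followed by at least 4 pyrimidines on the transcribed strand, against 5.14% of 27305 genes and 23.6% of 178 other genes at 500 counts per 1000000 or more. The letters searched were C and then any of C or T, on the strand of the gene only. The starts of 8 members that moved apart from the others are printed below from 10 bases before to 20 bases from the start, 5′ to 3′, to show that genes with and without a TOP start were among them; capitals mark the unbroken pyrimidine run that touches or covers the start.
RPS21: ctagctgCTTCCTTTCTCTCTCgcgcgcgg
RPS27: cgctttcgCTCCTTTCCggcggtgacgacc
RPL38: aagtctcgTTCTTTTTCgtccttttccccg
RPL31: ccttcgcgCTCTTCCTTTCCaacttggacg
RPS10: catgCTCCTTCCTTTCCagccccggtaccg
RPS29: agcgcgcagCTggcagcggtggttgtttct
RPS26: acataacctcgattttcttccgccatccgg
RPS4X: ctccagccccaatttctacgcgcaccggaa
The windows lie at chr20:62387093-62387122 for RPS21, chr1:153990752-153990781 for RPS27, chr17:74203668-74203697 for RPL38 and chr2:101002279-101002308 for RPL31, all on the plus strand. That of RPS26, at chr12:56041908-56041937, is also on the plus strand. Those of RPS10 at chr6:34426050-34426079, RPS29 at chr14:49598691-49598720 and RPS4X at chrX:72277229-72277258 are on the minus strand. The first 5 hold a TOP start and the last 3 do not, in these windows. The 46 members with a TOP start and the 16 without had near medians of the log2 ratio to the other members, between -0.04 and 0.04 with a TOP start and between 0.08 and 0.17 without, over the 4 comparisons described below.

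Levels are counts per 1000000 UMIs (CPM) summed over the cells of a library. Since a UMI counts a molecule at its 3′ end, CPM was not divided by transcript length. Summed cells held 51424092 to 73451883 UMIs per library, and the median cell held 8367 UMIs in knockout and 12645 in wild type at day 0, and 13169 in knockout and 8590 in wild type at day 6. With 1 library per group there was no replicate check and no test. Ranges in parentheses are exact 95% intervals that cover counting error only and compare libraries, not conditions. SIRT1 itself was at 7.11 CPM in knockout and 32.3 CPM in wild type at day 0, and at 9.95 CPM in knockout and 30.2 CPM in wild type at day 6; whether its counted 3′ end lies outside the deleted part is not given. Of 9 pluripotency markers, all reached 10 CPM in both day 0 libraries and 8 in both day 6 libraries. Their summed level was lower at day 6, at 1514 CPM in knockout and 1358 CPM in wild type. At day 0 it was 3419 CPM in knockout and 3963 CPM in wild type. The floor-plate gene FOXA2 was at 101 CPM in knockout and 91.4 CPM in wild type at day 6, whereas LMX1A was at 2.48 CPM in knockout and 0.564 CPM in wild type. PAX6 was at 0.429 CPM in knockout and 0.292 CPM in wild type. It was 1 of 7 neural progenitor markers, which together held 1022 CPM in knockout and 331 CPM in wild type at day 6. Most of that sum was PTN, at 755 CPM in knockout and 178 CPM in wild type, while HES5 was near 0 and higher in wild type. The 6 mesenchymal markers together held 172 CPM in knockout and 716 CPM in wild type. COL1A1 (94.6 CPM in knockout and 369 CPM in wild type) and TAGLN (38.5 CPM in knockout and 288 CPM in wild type) carried that difference. COL3A1, DCN and LUM were low and went the other way, so the sums do not show a difference of whole marker classes. The 4 libraries shared 5 to 18 cell barcodes pairwise. Reads from near-identical pseudogene copies and overlapping readthrough genes could be split by the counting, so member levels are uncertain to that extent.

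All 77 members exceeded 500 CPM in every library, and 70 or 71 of the 100 highest features of each library were members. RPL41, which encodes the smallest protein of the ribosome, was at 8747 CPM in knockout and 9760.5 CPM in wild type at day 0, and at 8429 CPM in knockout and 8360 CPM in wild type at day 6. RPS2 (at the mRNA entry channel), RPS19, RPLP1 (of the ribosomal stalk) and RPS14 were the next highest by their mean over the libraries. The lowest 5 were RPS26, RPL31, RPL4, RPL36A and RPL22, with means between 1189 and 1851 CPM. The median member was at 3073 CPM in knockout and 2911 CPM in wild type at day 0, and at 3400 CPM in knockout and 3934 CPM in wild type at day 6. The 5 highest members together held 12.6% to 13.2% of the ribosomal protein UMIs.

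Ribosomal protein transcripts took 24.7% of all UMIs in the knockout library at day 0, against 23.99% in wild type. At day 6 they took 27.9% in knockout and 32.0% in wild type. The share per cell had a median of 24.2% in knockout (SD over cells 2.49, n = 7275) and 23.9% in wild type (SD 2.15, n = 5533) at day 0. At day 6 it had a median of 28.4% in knockout (SD 4.07, n = 4419) and 32.5% in wild type (SD 3.84, n = 5372). The day 6 libraries were thus higher and wider than the day 0 libraries, and wild type at day 6 stood highest. Counting alone would give SDs of 0.379 to 0.505 at the median depth, so cells of 1 library differed beyond counting. Small and large subunit genes moved alike: the knockout-to-wild-type ratio was 1.03 for both at day 0, and 0.855 for the small and 0.883 for the large subunit at day 6.

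**Figure D1:**
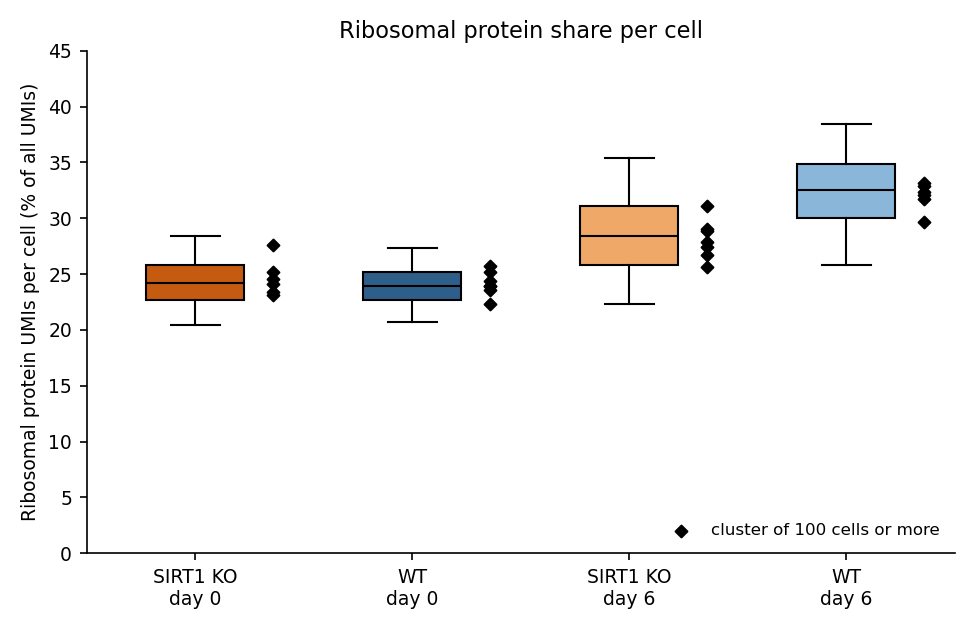
Share of UMIs from the 77 ribosomal protein genes per cell (%, y axis) in the 4 libraries; boxes show median and quartiles, whiskers the 5th and 95th percentile over cells, and diamonds the summed share of each cluster of 100 cells or more. The day 0 medians were 24.2% in knockout and 23.9% in wild type, and the day 6 medians 28.4% in knockout and 32.5% in wild type.

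The knockout-to-wild-type ratio of the share was 1.03 (1.030 to 1.031) at day 0 and 0.871 (0.871 to 0.872) at day 6. The day 6 to day 0 ratio was 1.33 in wild type and 1.13 in knockout. Depth per cell moved with the day 0 difference. In day 0 cells of 4000 to 8000 UMIs the share was 24.2% in knockout and 23.8% in wild type, in cells of 8000 to 16000 UMIs it was 23.8% in knockout and 23.9% in wild type, and in cells of 16000 or more it was 27.01% in knockout and 24.2% in wild type. The day 0 difference was thus largest in the deepest cells and turned to a ratio of 0.997 in the middle band. At day 6 the share was lower in knockout in each of these bands: 31.1% in knockout and 33.3% in wild type in the shallowest cells, 29.04% in knockout and 31.6% in wild type in the middle band, and 26.5% in knockout and 30.7% in wild type in the deepest. The day 6 libraries thus had a falling share with depth in both genotypes, and the part of depth in these values was not tested. In the profile of free RNA, from barcodes with 1 to 50 UMIs, the share was 23.7% in knockout and 24.9% in wild type at day 0. At day 6 it was 27.4% in knockout and 33.3% in wild type. The order of the genotypes in free RNA was thus the reverse of that in cells at day 0, and the same at day 6. Mitochondrially encoded UMIs were 4.56% in knockout and 5.49% in wild type at day 0, and 1.94% in knockout and 2.16% in wild type at day 6; without them the share ratios were 1.02 at day 0 and 0.869 at day 6.

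Each library was clustered by itself on other genes, without the members, their paralogs or mitochondrially encoded genes. Among clusters of 100 cells or more the share ran between 23.1% and 27.6% in knockout and between 22.3% and 25.7% in wild type at day 0, and between 25.6% and 31.1% in knockout and between 29.7% and 33.1% in wild type at day 6. Among these clusters, the one led by mitotic genes (KIF20A, AURKA, CENPA, KIF23 and the like) had the lowest share in both day 6 libraries and in knockout at day 0. Its median depth at day 6 was 15406 UMIs in knockout and 12386 UMIs in wild type. The highest share in knockout at day 0, 27.6%, belonged to 765 cells led by the metallothionein genes MT1E and MT2A, which bind metal ions; their median depth was 18380 UMIs. In wild type at day 0 the cluster led by MT1H and MT2A (600 cells) had 25.2%. The highest share there, 25.7%, was in 114 cells (2.06% of the library) led by hypoxia-response genes such as NDUFA4L2, ANKRD37 and EGLN1. STC1, SLC16A3 and INSIG2, also leading genes of those cells, led 2 clusters in knockout at day 0. These held 23.2% and 11.7% of the knockout cells, with shares of 25.2% and 24.6%. The part of this composition in the day 0 share ratio was not tested. At day 6 the highest share was 31.1% in 919 knockout cells led by BMP4, OLIG1 and LINC00261, and 33.1% in 934 wild-type cells led by PLA2G2A, ESRG and CST1. A further 24 knockout cells at day 6 had 37.4% ribosomal protein and 0.232% mitochondrial UMIs, at a median of 4627 UMIs. Other clusters under 100 cells at day 6 lay below the mitotic ones: 69 knockout cells had 23.6% and 15 wild-type cells 25.5%. These differences between clusters have no replicate check.

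Members were next compared one by one. A member was called higher or lower where its ratio reached 1.3-fold with an interval excluding 1, first in CPM and then relative to the other members, as its UMIs per UMI of all other members. For members, the relative ratio removes the change of the whole set. For other features it still holds that change, so the shares of all features given beside relative counts are shifted by it. At day 0, knockout against wild type, no member was called higher in CPM (4.52% of 9095 measured features were) and 2 were called lower (5.66% of features), RPS21 and RPS27; with TMM factors 3 were higher and 1 lower. Relative to the other members, none was higher (3.46% of features) and 3 were lower (7.44% of features), with RPL38 added. Apart from the counts with TMM factors, these shares are at or under the background. The share of all features called was not counted with TMM factors, here or below, so those counts have no background. The day 0 set was thus almost level between the genotypes, with 1 large exception: RPS21, a small-subunit protein, was at 2544 CPM in knockout and 4071 CPM in wild type, 1.60-fold (1.59 to 1.61) lower. RPS27, a zinc-binding small-subunit protein, was at 3515 CPM in knockout and 4591 CPM in wild type, 1.31-fold lower. RPL38, whose loss in mice changes translation of Hox transcripts, was at 2382 CPM in knockout and 2998 CPM in wild type, and relative to the other members it was 1.301-fold lower. RPL37 and RPL39 (which lines the exit tunnel) followed at 1.24-fold and 1.23-fold lower relative to the others, under the size rule. At the other end stood RPS4X, RPL13A, RPS2, RPL10 and RPL13, with relative ratios of 1.18 to 1.25, none past the rule. RPS4X, the highest, was at 4257 CPM in knockout and 3304 CPM in wild type.

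At day 6 the set as a whole was lower in knockout. In CPM 11 members were called lower (7.38% of 8723 measured features were, and 14.9% of the 241 features at 500 CPM or more, members included) and 1, RPS29, was called higher (35.2% of features). The median log2 ratio was -0.18 for members and 0.25 for all measured features, and 1 of 77 members lay above the median of all features. That count does not depend on the scaling to library size, while the medians do. With TMM factors they were -0.40 for members and 0.03 for all features. Then 41 members were lower and 0 higher, without a share of all features to set beside them. In cells of 8000 to 16000 UMIs alone, 6 members were lower. Other highly expressed genes, the non-members at 500 CPM or more, had a median of 0.02. Among those called lower were RPS10, RPS19, RPS14, RPL8, RPL11, RPL12, RPL26 and RPL35. RPS19, a 40S protein needed for maturation of the small-subunit RNA, was at 6593 CPM in knockout and 9278 CPM in wild type, 1.41-fold lower. RPL11 was at 3585 CPM in knockout and 4828 CPM in wild type, 1.35-fold lower, whereas its MDM2-binding partner RPL5 was at 2650 CPM in knockout and 2794 CPM in wild type, 1.05-fold lower. The pair therefore did not keep 1 ratio.

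Relative to the other members, 1 was lower at day 6 (4.38% of features) and 2 were higher (57.3% of features). The lower one was RPS10, a protein of the small-subunit head that is ubiquitinated on collided ribosomes. It was at 1746 CPM in knockout and 3070 CPM in wild type at day 6, 1.76-fold (1.74 to 1.77) lower in CPM and 1.54-fold relative to the others. At day 0 it was at 1326 CPM in knockout and 1433 CPM in wild type, so wild type at day 6 was the library that stood out. The overlapping readthrough feature RPS10-NUDT3 held 2.94 CPM in knockout and 3.15 CPM in wild type at day 6, and 2.87 CPM in knockout and 2.79 CPM in wild type at day 0. The higher ones were RPS29, a zinc-binding protein of the small-subunit head, at 2025 CPM in knockout and 1550 CPM in wild type, and RPL31, a large-subunit protein near the exit of the tunnel, at 1511 CPM in knockout and 1324 CPM in wild type. Their relative ratios were 1.503 and 1.31. RPS28, RPS27 and RPL36A had relative ratios of 1.26 to 1.27, and RPS19 and RPL8 were 1.23-fold and 1.20-fold lower, all under the rule.

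**Figure D2:**
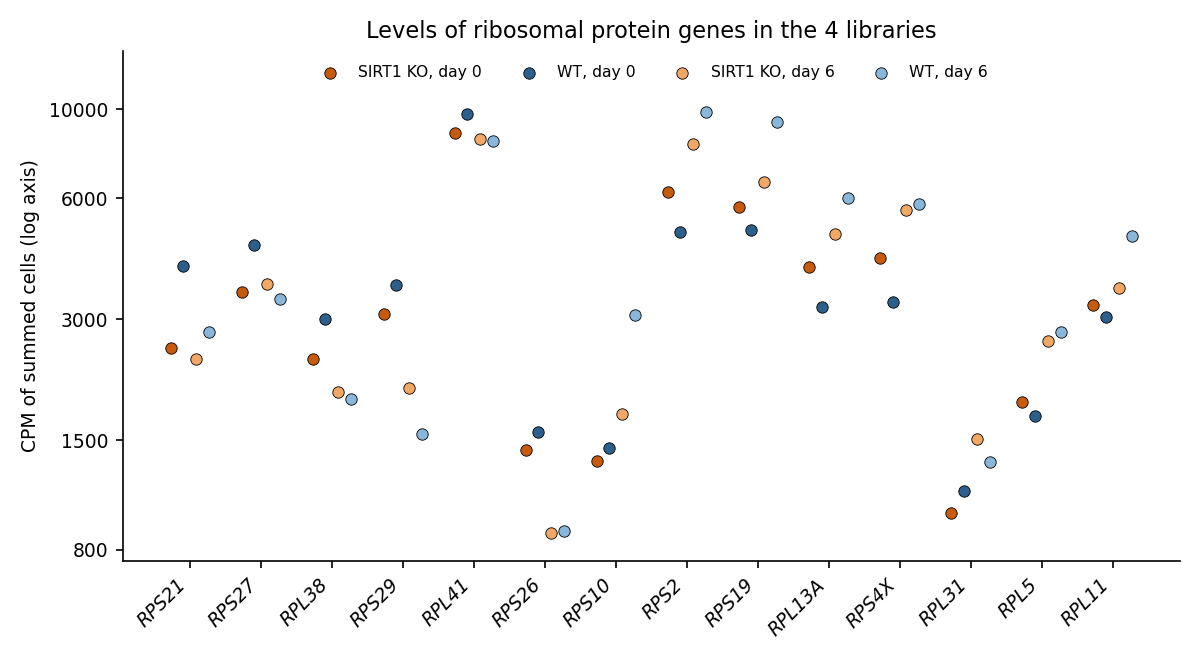
CPM of summed cells (log axis) of 14 named ribosomal protein genes, 1 point per library. RPS21 stands highest in wild type at day 0 (4071 CPM) and RPS10 in wild type at day 6 (3070 CPM), while RPS26 and RPS29 are lower at day 6 than at day 0 in both genotypes.

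Between days, wild type had the larger move. In wild type 46 members were called higher at day 6 in CPM (17.3% of 9324 measured features were, and 38.4% of the 289 at 500 CPM or more, members included) and 5 lower (48.5% of features): RPS29, RPS26, RPL38, RPS21 and RPS27. The median log2 ratio was 0.49 for members and -0.35 for all measured features, and 71 of 77 members lay above that of all features. In knockout 12 members, a share under the background, were called higher at day 6 (22.1% of 9368 features) and 2, RPS26 and RPS29, lower (31.4% of features). The median was 0.20 for members and -0.09 for all features, and 72 of 77 members lay above that of all features. TMM factors moved the median of all features by 0.41 in wild type and 0.13 in knockout, and members by the same amounts. In knockout 28 members were then called higher, and 25 were in cells of 8000 to 16000 UMIs alone.

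Relative to the other members, 12 were higher (8.28% of features) and 13 lower (70.0% of features) at day 6 in wild type. The median relative log2 ratio was 0.08 for members and -0.76 for all measured features, so the 70.0% largely holds the rise of the set. RPS10 led, at 3070 CPM at day 6 and 1433 CPM at day 0, a relative ratio of 1.61. RPS2 was at 9860.5 CPM at day 6 and 4949.5 CPM at day 0, with a relative ratio of 1.51. RPL13A, RPL13 and RPS19 followed at 1.40 to 1.42. RPS29 was the lowest, at 1550 CPM at day 6 and 3657 CPM at day 0, 2.36-fold lower in CPM and 3.18-fold lower relative to the others. RPS26, which binds mRNA at the exit channel, was at 888 CPM at day 6 and 1574.5 CPM at day 0, 2.37-fold lower relative to the others. RPL38, RPS21 and RPS27 were 2.11-fold, 1.96-fold and 1.84-fold lower relative to the others.

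In knockout only 2 members were higher relative to the others (14.9% of features) and 3 lower (42.0% of features) at day 6. RPL31 was at 1511 CPM at day 6 and 986 CPM at day 0, and RPL6 at 4069 CPM at day 6 and 2734 CPM at day 0, with relative ratios of 1.36 and 1.33. RPL21, RPL36A and RPL5 followed at 1.27 to 1.29, under the rule. RPS26 was at 878 CPM at day 6 and 1414 CPM at day 0, 1.82-fold lower relative to the others. RPS29 was at 2025 CPM at day 6 and 3086 CPM at day 0, 1.73-fold lower, and RPL38 was 1.36-fold lower. RPS18 and RPS21 were 1.23-fold and 1.20-fold lower, under the rule. RPS26, RPS29 and RPL38 were thus lower at day 6 in both genotypes. Across the 77 members the relative log2 ratios of the 2 day comparisons, which share no library, correlated with r = 0.71 (Pearson) and rho = 0.59 (Spearman), and 56 members had the same sign.

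The genotype comparisons, which also share no library, ran against each other. In CPM 44 members were higher in knockout at day 0 and lower in knockout at day 6, 11 the reverse, 20 lower at both days and 2 higher at both. The relative log2 ratios had r = -0.40 (Pearson) and rho = -0.48 (Spearman) over the 77 members. These are descriptions across genes that share libraries, depth and base composition.

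Short members moved together. The 9 that encode at most 100 residues are RPL41, RPL39, RPS29, RPS28, RPL38, RPS21, RPS27, RPL37A and RPL37, a split chosen after the values were seen. At day 0, knockout against wild type, all 9 were lower relative to the other members, with a median log2 ratio of -0.30, against 0.06 for the 68 longer members. At day 6 the order was turned: 8 of 9 were higher in knockout, with a median of 0.26 against -0.02. Between days all 9 were lower at day 6, with medians of -0.79 in wild type and -0.21 in knockout, against 0.13 and 0.04 for the longer members. In wild type all 9 were called lower, beside 4 lower and 12 higher of the 68 longer members and 70.0% lower of all measured features. Of non-members at 500 CPM or more, 23 of 26 that encode at most 100 residues were called lower, and 84 of 165 longer ones. The Spearman correlation of the relative ratio with the number of residues over 77 members was 0.75 at day 0 and -0.30 at day 6 for knockout against wild type, and 0.68 in wild type and 0.43 in knockout for day 6 against day 0. Coding GC content had correlations of 0.44, -0.38, 0.28 and -0.25 in the same order.

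Outside the set the split by protein length gave medians in the same order, with weaker correlations. Non-members at 500 CPM or more that encode at most 100 residues had median log2 ratios, set against the members' total, of -0.17 (27 genes) at day 0 and 0.43 (16 genes) at day 6 for knockout against wild type. Longer non-members had -0.01 and 0.23. Between days the short non-members had -0.998 (26 genes) in wild type and -0.41 (25 genes) in knockout, and the longer ones -0.39 and -0.23. Their Spearman correlations with the number of residues were 0.18 (173 genes) at day 0 and -0.13 (147 genes) at day 6 for knockout against wild type, and 0.29 (191 genes) in wild type and 0.25 (184 genes) in knockout between days. The split is by encoded protein and not by transcript. Among transcripts annotated as principal for a gene, the longest of equal coding length was taken. It had 7686 bases for RPL37 (97 residues) and 455 bases for RPL35 (123 residues). Such lengths need not be those of the RNA counted, so they do not tell whether short members have short transcripts. The part of transcript length or library preparation was not tested.

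**Figure D3:**
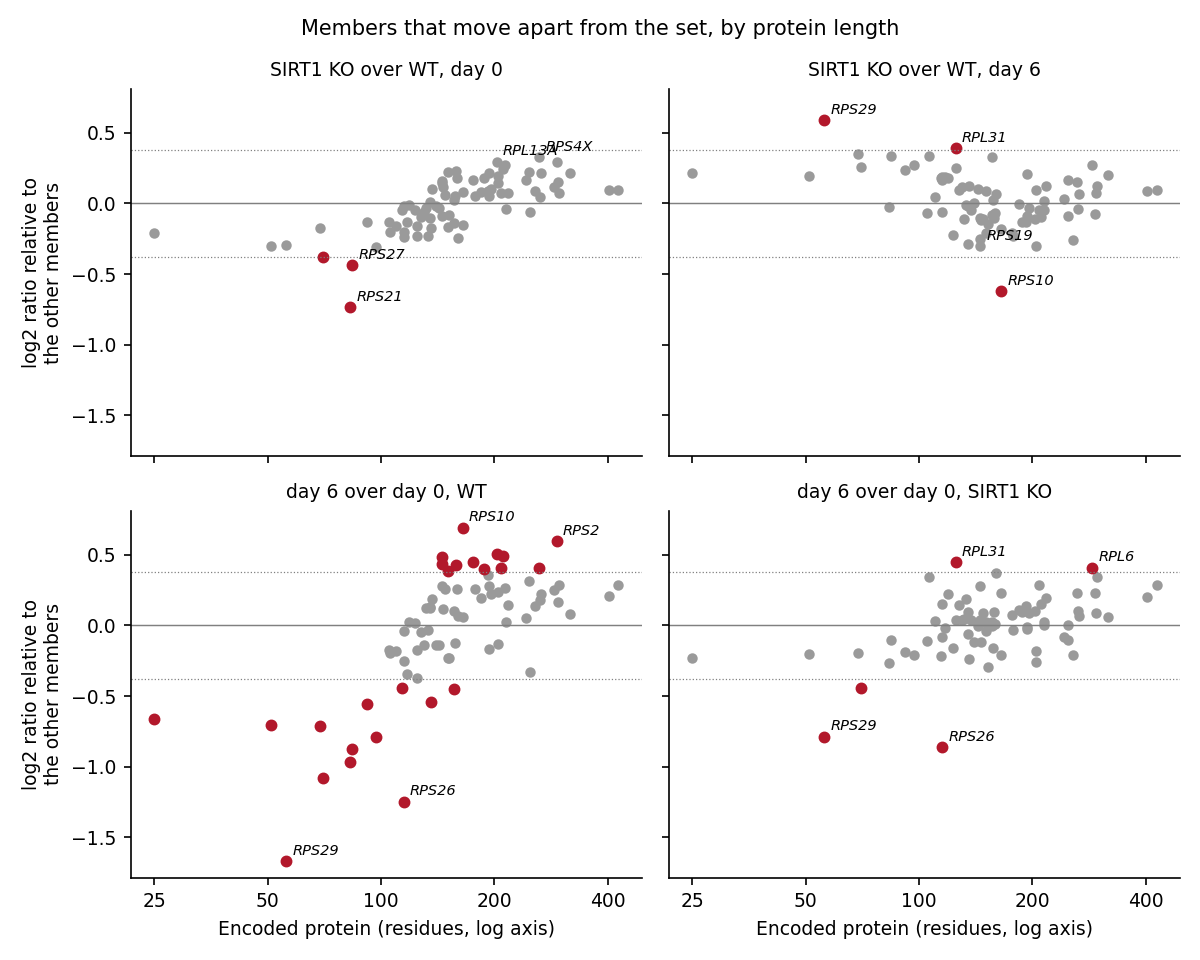
Log2 ratio of each of the 77 members relative to the other members (y axis) against the residues of its protein (x axis, log), for 4 comparisons; red points pass the 1.3-fold rule, whose limits are dotted. The 9 shortest lie below 0 in all panels but knockout against wild type at day 6, where 8 of 9 lie above.

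RPS21 is the only member on chromosome 20 (chr20:62387116-62388520, GRCh38). Cells were split by their share of UMIs from chromosome 20, computed without members and mitochondrially encoded genes, at limits of 2.6% and 3% chosen with these data known. Below 2.6% lay 56.8% of knockout and 0.651% of wild-type cells at day 0, and 62.7% of knockout and 3.80% of wild-type cells at day 6. Among knockout cells at day 0 RPS21 was at 2133 CPM below 2.6% and at 3185 CPM at 3% or more, while wild-type cells at 3% or more were at 4078.5 CPM. Among knockout cells at day 6 it was at 2032 CPM below 2.6% and at 3109 CPM at 3% or more, while wild-type cells were at 2130 CPM below 2.6% and 2823 CPM at 3% or more. Between these limits RPS21 was at 2744 CPM in knockout and 4059 CPM (3968 to 4152) in wild type at day 0, and at 2667 CPM in knockout and 2787 CPM in wild type at day 6. In both knockout libraries the level was thus higher in each class of higher chromosome 20 share. In wild type the upper classes were level at day 0 and differed little at day 6. The lowest class of wild type at day 6 (204 cells) was below both upper classes, as in knockout. At day 0 that class held 36 wild-type cells and was given no level. Per 1000 ribosomal protein UMIs, cells at 3% or more had 12.75 in knockout and 17.0 in wild type at day 0, 1.33-fold lower in knockout, and 11.1 in knockout and 8.85 in wild type at day 6, 1.26-fold higher in knockout. Choosing cells by this share favours genes of chromosome 20 by construction.

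RPS21 was also the member with the widest spread over the cells of both knockout libraries. Spread is the variance of a member's count over cells thinned to 500 ribosomal protein UMIs, divided by what random drawing gives, so that 1 means no more than counting error. It was 1.23 in knockout and 1.06 in wild type at day 0, and 1.26 in knockout and 1.05 in wild type at day 6. Most members lay close to 1, with medians of 1.04 to 1.06 over the 77 genes. RPS26 (1.098 to 1.18 over the libraries), RPS19 (1.07 to 1.20), RPL41 (1.09 to 1.17), RPS2 (1.08 to 1.14), RPL6 (1.099 to 1.12) and RPL26 (1.00 to 1.16) were also among the widest 5 in at least 2 libraries. RPL14, RPS10 and RPL22 were among the narrowest 5 in at least 2 libraries, between 0.978 and 1.06. RPS10 differed between libraries, while its spread over the cells of a library lay near 1. Counting error weighs more in a member with few counts per thinned cell. A spread near 1 therefore does not tell that the cells were alike in RPS10.

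RPS26 varied most between clusters. The ratio of its highest to its lowest cluster, per 1000 ribosomal protein UMIs, was 1.325 in knockout and 1.63 in wild type at day 0, and 1.70 in knockout and 1.305 in wild type at day 6, in each library the largest of the 77 members. In knockout at day 0 RPL31 came close, at 1.316. The median member had ratios of 1.07 in knockout and 1.08 in wild type at day 0, and 1.07 in knockout and 1.06 in wild type at day 6. In knockout at day 6 RPS26 was highest, at 4.401 (4.31 to 4.49), in 496 cells in which POU5F1, a pluripotency factor, was at 462 CPM, and 3.59 in 513 cells with POU5F1 at 502 CPM. It was 3.46 in 407 cells with POU5F1 at 45.6 CPM, and lowest, at 2.595, in the 919 cells led by BMP4, with POU5F1 at 61.2 CPM. In wild type at day 6 it was highest, at 3.13, in the 934 cells with POU5F1 at 456 CPM, and lowest, at 2.39, in 742 cells led by ANXA1 and GREM1. In wild type at day 0 it was 7.21 in 1435 cells led by histone genes, 5.23 in 195 cells led by SIX3 and 4.41 in 114 cells led by hypoxia-response genes, with POU5F1 at 883, 345 and 921 CPM. In wild type at day 6 RPS26 was 2.88 in 1590 cells with POU5F1 at 51.4 CPM and 2.53 in 145 cells with POU5F1 at 285 CPM. The cluster with the highest RPS26 at day 6 had high POU5F1 in both genotypes, but the other clusters did not keep that order: over the 6 or 7 clusters Spearman's rho was 0.36 in knockout and -0.09 in wild type at day 6, and 0.43 in knockout and 0.11 in wild type at day 0. RPS21 varied little between wild-type clusters (1.03-fold at day 0 and 1.07-fold at day 6) and more between knockout clusters (1.19-fold and 1.31-fold).

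**Figure D4:**
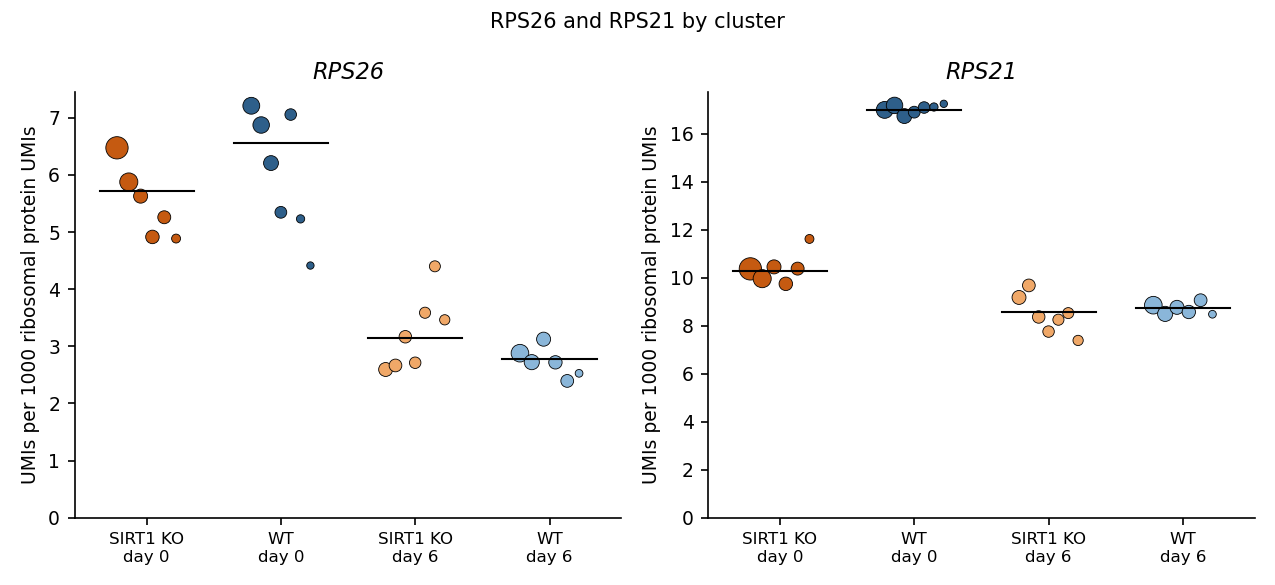
UMIs of RPS26 (left) and RPS21 (right) per 1000 ribosomal protein UMIs (y axis, from 0) in each cluster of 100 cells or more; point area grows with the cells in the cluster and the line is the whole library. RPS26 spans 2.595 to 4.401 in knockout at day 6, and RPS21 stays near 17.0 in wild type at day 0.

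Other genes of ribosome production did not move as 1 group with the members. The host genes of small nucleolar RNAs, which are noncoding transcripts of the TOP kind in several cases, were higher at day 6 with 11 of 13 genes called in wild type (17.3% of all features) and 9 of 13 in knockout (22.1% of all features), and medians of 0.87 and 0.54 in log2 CPM ratio. In each genotype 1 host, SNHG5, was called lower. ZFAS1 was at 1389 CPM at day 6 and 552 CPM at day 0 in wild type, and at 769 CPM at day 6 and 416 CPM at day 0 in knockout. ZFAS1 lies on chromosome 20, as RPS21 does. At day 6 it was 1.81-fold lower in knockout, GAS5 1.52-fold and SNHG32 1.70-fold lower, and 8 of 13 hosts were called lower (7.38% of all features) and none higher. Translation factors and other transcripts of the TOP kind were called higher at day 6 in 10 of 19 genes in wild type (17.3% of all features) and 6 of 19 in knockout (22.1%), and lower in 1 in wild type and 0 in knockout. EEF1G, of elongation factor 1, was at 2219 CPM at day 6 and 1046 CPM at day 0 in wild type. VIM, an intermediate filament gene often counted in that class, was at 2952 CPM at day 6 and 241 CPM at day 0 in wild type.

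Genes for ribosome assembly were mostly lower at day 6, as many other features were: 48.5% of all features were called lower in wild type and 31.4% in knockout. In wild type 26 of 39 assembly genes were called lower and 2 higher at day 6, with a median of -0.56, and in knockout 22 were lower and 4 higher, with a median of -0.44. NOP10, of the H/ACA particles that guide pseudouridylation, was at 134 CPM at day 6 and 369 CPM at day 0 in wild type, and at 172 CPM at day 6 and 352 CPM at day 0 in knockout. Of the 77 measured mitochondrial ribosomal proteins, 53 were lower and 1 higher at day 6 in wild type, and 40 lower and none higher in knockout, beside the same 48.5% in wild type and 31.4% in knockout of all features lower. MRPL16 was at 11.4 CPM at day 6 and 47.4 CPM at day 0 in wild type, and at 23.2 CPM at day 6 and 45.7 CPM at day 0 in knockout. Cytosolic and mitochondrial ribosomal proteins thus had opposite directions between days in both genotypes, with all measured features at -0.35 in wild type and -0.09 in knockout. With TMM factors these lists stayed lower by their medians, at -0.15 in wild type and -0.31 in knockout for assembly genes and at -0.21 in wild type and -0.26 in knockout for mitochondrial ribosomal proteins. The calls in wild type were then 6 higher and 13 lower for assembly and 9 higher and 26 lower for mitochondrial ribosomal proteins. At day 0, 6 of 39 assembly genes were called lower in knockout (5.66% of all features) and 0 higher, among them NOP58, LTV1, NOP56 and WDR12 at 1.37-fold to 1.47-fold lower; NOP56 lies on chromosome 20.

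RNA polymerase I, which makes the ribosomal RNA precursor, and its factors had 1 of 16 measured genes called higher and 6 lower at day 6 in wild type, or 4 and 4 with TMM factors, and 3 of 17 higher and 7 lower in knockout. All features had 17.3% higher and 48.5% lower in wild type, and 22.1% higher and 31.4% lower in knockout, so the wild-type counts of this list lay under the background in both directions. TAF1D, also a host of small nucleolar RNAs, was the highest, at 382 CPM at day 6 and 125 CPM at day 0 in wild type. MYC, a transcription factor of ribosome genes, was at 12.1 CPM in knockout and 28.3 CPM in wild type at day 6, 2.34-fold (2.15 to 2.56) lower, and at 28.96 CPM in knockout and 32.6 CPM in wild type at day 0. Of 8 measured genes for paralogs and fusion-encoded ribosomal proteins outside the symbol rule, 3 were lower and 1 higher at day 6 in wild type, and 4 lower and 0 higher in knockout; with TMM factors the wild-type counts were 2 lower and 3 higher. The 3 lower in wild type are a smaller share than the 48.5% of all features, and the 4 lower in knockout a larger share than the 31.4% there. Both counts rest on 8 genes. RPL22L1, a paralog of RPL22, was at 136 CPM in knockout and 171 CPM in wild type at day 6, and at 369 CPM in knockout and 542.5 CPM in wild type at day 0, so it was 1.47-fold lower in knockout at day 0. RPL39L was at 60.1 CPM in knockout and 134 CPM in wild type at day 0, 2.22-fold lower, and at 33.1 CPM in knockout and 55.3 CPM in wild type at day 6, 1.67-fold lower. RPS27L, a p53 target in human cells, was at 263 CPM in knockout and 380 CPM in wild type at day 6, 1.45-fold lower.

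**Figure D5:**
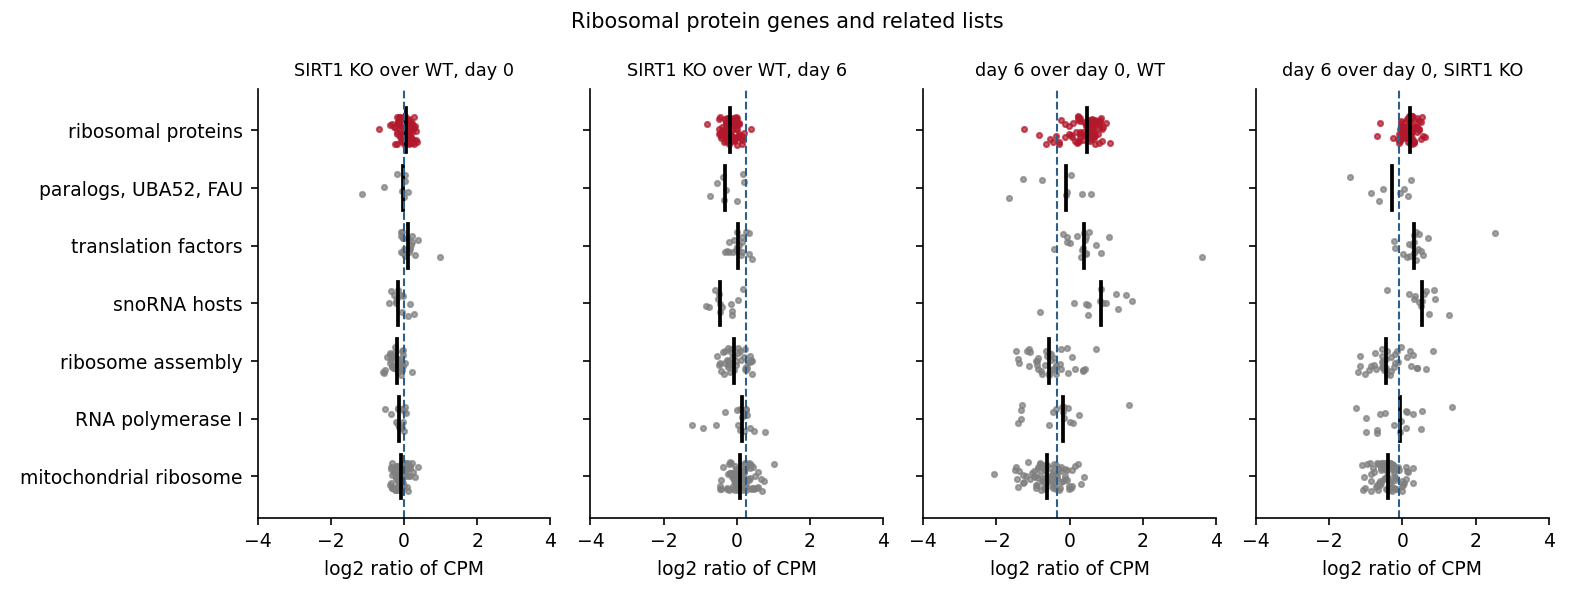
Log2 ratio of CPM (x axis) of each measured gene in 7 lists for 4 comparisons, points being genes, black bars the medians and the dashed line the median of all measured features. Ribosomal protein genes have medians of -0.18 in knockout against wild type at day 6 and 0.49 in wild type between days, where assembly genes have -0.56.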

How the data were processed

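RNA of 4 libraries of H9 cells, a SIRT1 knockout and a wild-type library at each of day 0 and day 6, was counted per gene and cell barcode. The deposited values were raw UMI counts for 36601 features over all barcodes, not normalised. Cell Ranger 6.1.2 and the genome GRCh38 are named in the submitters' processing notes, whereas the matrices' own header gives Cell Ranger 4. Which annotation was used is not stated in the labels or headers. Such counting can split or drop reads of near-identical copies. Gene positions and coding lengths came from GENCODE 29 (GRCh38) by Ensembl identifier.

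Cells were kept at 4000 UMIs, 1000 genes and at most 20% mitochondrial UMIs, and held 51424092 to 73451883 UMIs per library. Doublets were kept, since the automatic threshold of Scrublet marked 0 cells and was taken as not having worked. Counts were summed per library. A feature counted as measured in a comparison when either library reached 10 CPM. Ratios have exact conditional binomial (Clopper-Pearson) 95% intervals, log2 ratios a prior count of 0.5, and calls need 1.3-fold. With 1 library per group no test was made. Clusters used scanpy 1.11.5 (scaling to 10000 counts, log transformation, 2000 variable genes, 30 components, 15 neighbours, Leiden resolution 0.5) on genes other than the members. TMM factors came from edgeR 4.0.16, Python was 3.11.15 and R was 4.3.3. Alternatives changed the cells kept, doublets, free RNA, weighting, scaling, fold and filter; that of cells with 8000 to 16000 UMIs was added after seeing the data.

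Named members were, for each comparison, the 5 highest and 5 lowest by relative ratio, those 5 widest or narrowest over cells in at least 2 libraries, the 5 highest and 5 lowest by CPM, RPL5, RPL11 and members on chromosome 20, and up to 4 genes with the largest ratios from each other list. Other members called in CPM and the 9 shortest are named beside them, chosen after their values were seen. Some members that the rule takes are not reported here by name. The members, lists and rules were chosen with earlier results of these data known.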

Additional observations from a re-analysis of the deposited data

Results flagged for a closer look

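The share of ribosomal protein transcripts differed in direction between the days: the knockout-to-wild-type ratio was 1.03 at day 0 and 0.871 at day 6. Among members past the 1.3-fold rule relative to the other members at either day, 4 had opposite directions. Opposite signs were the more common case in the whole set, where 25 of 77 members had the same sign at both days. RPS29 had a relative log2 ratio of -0.29 at day 0 and 0.59 at day 6, knockout against wild type. RPS27 had -0.44 at day 0 and 0.33 at day 6. RPL38 had -0.38 at day 0 and 0.26 at day 6. RPL31 had -0.23 at day 0 and 0.39 at day 6. Each group was 1 library, so the difference between the days was not tested. RPS29, RPS27 and RPL38 are among the 9 members of at most 100 residues, and RPL31 is not.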

How the results depend on the processing

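Of 36 calls of single members relative to the others, none changed direction in any alternative. At 1.5-fold 20 were lost, and 1 was lost with cells weighted equally and 2 in cells of 8000 to 16000 UMIs. The knockout-to-wild-type share ratio at day 0 turned to 0.997 in cells of 8000 to 16000 UMIs. It was 1.0296 with cells called relative to the deepest barcodes, 1.01 with cells weighted equally, 1.0395 at 8000 UMIs or more, 1.0395 with free RNA subtracted, 1.0315 without the highest doublet scores and 1.02 without mitochondrial UMIs. The day 6 ratio was 0.883 with cells weighted equally, 0.918 in the band of 8000 to 16000 UMIs, 0.880 at 8000 UMIs or more, 0.877 with free RNA subtracted and 0.869 without mitochondrial UMIs. For day 6 against day 0 these settings gave, in wild type, 1.35 weighted equally, 1.32 in the band, 1.31 at 8000 UMIs or more, 1.3342 without the highest doublet scores and 1.29 without mitochondrial UMIs. In knockout they gave 1.18, 1.22, 1.11 and 1.096 for weighting, band, depth and mitochondrial UMIs, and 1.1235 with free RNA subtracted.

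Counts of members in CPM moved with the scaling and with the fold. With TMM factors, knockout against wild type, 3 were higher and 1 lower at day 0, and 0 higher and 41 lower at day 6, while between days 66 were higher and 2 lower in wild type and 28 higher in knockout. Scaled to the total without members and mitochondrial genes, 0 were higher and 22 lower at day 6. In the band, 6 were lower at day 6 and 25 higher between days in knockout. At 8000 UMIs or more, and with free RNA subtracted, 1 was higher and 1 lower at day 0. The share of all features called was not counted under any of these settings. At 1.5-fold the CPM counts were 1 lower at day 0, and 0 higher and 1 lower at day 6. Between days they were 30 higher and 3 lower in wild type, and 1 higher and 2 lower in knockout. The relative counts at 1.5-fold were 1 lower at day 0, and 1 higher and 1 lower at day 6. Between days they were 2 higher and 9 lower in wild type, and 0 higher and 2 lower in knockout. The cause was not tested. No paired analysis was possible because each group was 1 library. Intervals cover counting error only, and 1 library per group does not tell a condition from a culture or a library preparation.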
